A study of Mus musculus with 8 samples.

Results

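Akap3, Akap4, Odf1, Odf2, Tekt1, Tekt2, Tekt4, Ropn1, Spag6 and Spag16 are 10 genes of the sperm tail, chosen by name from the 19532 gene symbols that the array's annotation gives. They have 17 probes, of which 16 passed the filter on dim probes, and each gene is described by its brightest probe (highest mean over all samples) unless another is named. Tissue RNA came from CFT Swiss albino mice, 5 weeks old, injected intraperitoneally for 8 days with saline, obestatin, an N-terminal fragment of that peptide, or Nt8U, an analog of the fragment. Each group had 2 samples, 8 in all, hybridised on 4 arrays with 2 colours: replicate 1 carried the dye Cy3 and replicate 2 the dye Cy5, and each array held the pair of 1 group. The labels conflict on the dose (80 ng/kg or 80 nmol/kg), on the mice per group (6 or 3) and on the tissue, which some fields call epididymal fat pad and others epididymal tissue. Whether the pair of a group stems from different animals is not stated, so the p-values cover sample-to-sample spread that may be technical. Array and group cannot be told apart, nor can sample and dye within a group.

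The tail of a sperm is a flagellum, a motile axoneme of microtubule doublets around a central pair, wrapped in structures that ordinary cilia lack. Outer dense fibres run beside the doublets, and the fibrous sheath surrounds them along the principal piece and anchors signalling enzymes such as protein kinase A. The RNAs for these proteins are made by male germ cells in the testis, mostly in spermatids, and the sperm that reach the epididymis are transcriptionally silent. Motile cilia of other epithelia share the axonemal proteins but not the fibrous sheath or the outer dense fibres.

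Promoter sequence is shown first, for 2 axonemal and 2 fibrous sheath genes whose stretch lies before every annotated start of the gene. RefSeq (GRCm38.p6) gave windows around the transcription start, mostly upstream of it, for 9 of the 10 genes, all but Odf1. In the Tekt2 and Spag16 stretches capitals mark GTTNCC on either strand, one arm of the X-box that RFX factors bind in genes of cilia. The end of the Spag16 stretch cuts through a further GTTNCC, which is left in lower case. In the Akap3 and Akap4 stretches capitals mark the longest run of bases that both share. Tekt2 is on chr4:126325689-126325808, minus strand. Spag16 is on chr1:69826770-69826871, plus strand. Akap3 is on chr6:126852978-126853097, plus strand. Akap4 is on chrX:7067395-7067514, plus strand.
Tekt2: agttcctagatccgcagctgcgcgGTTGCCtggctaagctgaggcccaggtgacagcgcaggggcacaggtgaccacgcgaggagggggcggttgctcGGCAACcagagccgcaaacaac
Spag16: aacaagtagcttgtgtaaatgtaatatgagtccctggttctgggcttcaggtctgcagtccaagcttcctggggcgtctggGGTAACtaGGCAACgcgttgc
Akap3: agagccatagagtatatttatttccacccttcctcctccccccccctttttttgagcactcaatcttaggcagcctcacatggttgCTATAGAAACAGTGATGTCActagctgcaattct
Akap4: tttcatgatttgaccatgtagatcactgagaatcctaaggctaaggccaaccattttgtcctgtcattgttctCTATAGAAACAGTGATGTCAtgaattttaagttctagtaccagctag

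The run shared by Akap3 and Akap4 is 20 bases long and begins 34 bases before the start of Akap3 and 47 before that of Akap4. Among the 36 pairs of members with windows the next longest shared run had 14 bases. Of the 27025 mouse genes with windows, Akap3 and Akap4 were the 2 that held the 20-base run on either strand. GTTNCC was present in a window of 6 of the 9 genes, namely Akap4, Tekt1, Tekt2, Tekt4, Spag6 and Spag16, against 48.8% of all genes, and is short enough to be common. The full X-box, searched as GTTNCCNNGGNAAC on both strands, was in none of the 9 and in 0.529% of all genes. The cAMP response element TGACGTCA, searched on both strands as the element bound by the spermatid factor CREM, was likewise in none of the 9, against 2.03% of all genes, and its shorter form TGACG was in Odf2 and Tekt1, against 23% of all genes. The full X-box and the full cAMP response element were not in these windows, which says nothing about the factors.

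Expression is given as normalized log2 intensity, a log2 brightness after background correction and normalization, so that a difference of 1 is a doubling. In 3 of the 4 groups the sperm tail genes differed far more between the samples of a group than the group means differed from each other. In the saline, N-terminal and Nt8U groups, all 10 genes were more than 4-fold brighter in replicate 2 than in replicate 1. In the obestatin group all 10 were more than 2-fold dimmer in replicate 2 (0 of 10 without loess normalization, where 9 were dimmer at all), and both obestatin samples lay mostly between the levels of the dim and bright samples of the other groups. Less RNA per cell cannot be told apart from fewer cells that carry these RNAs in bulk tissue.

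Akap4, the most abundant protein of the fibrous sheath and an anchor of protein kinase A, read 8.16 in saline replicate 1 and 14.10 in saline replicate 2, 11.06 and 9.14 with obestatin, 8.40 and 14.62 with the N-terminal peptide, and 7.85 and 13.27 with Nt8U. Replicate 2 was thus 61.2-fold brighter than replicate 1 in saline, 74.2-fold with the N-terminal peptide and 42.7-fold with Nt8U. With obestatin it was 3.79-fold dimmer, and both obestatin values lay between those of saline. Akap3, the anchoring protein that assembles with Akap4 in the sheath, read 7.99 and 12.33 in saline, 9.28 and 7.80 with obestatin, 8.52 and 12.51 with the N-terminal peptide, and 7.87 and 11.54 with Nt8U. Its obestatin replicate 2 lay just below the dim saline sample, and its bright samples were 12.8-fold to 20.3-fold above their partners. Ropn1, ropporin, which binds A-kinase anchoring proteins in the sheath, read 10.18 and 15.56 in saline, 11.80 and 10.44 with obestatin, 11.06 and 15.31 with the N-terminal peptide (replicate 2 saturated), and 9.46 and 14.50 with Nt8U. A saturated spot gives only a lower bound, so the N-terminal difference for Ropn1 was at least 19.1-fold, beside 41.5-fold in saline.

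Odf1, a main structural protein of the outer dense fibres, read 6.48 and 11.47 in saline. Its obestatin samples read 8.07 and 7.06, its N-terminal samples 6.65 and 11.71, and its Nt8U samples 6.44 and 10.17, with Nt8U replicate 1 not well above background. The Odf1 difference with Nt8U was therefore at least 13.3-fold, against 31.8-fold in saline. Odf2, a coiled-coil protein found in outer dense fibres and, in other isoforms, at centrosomes, read 11.28 and 15.93 in saline, 15.50 and 14.18 with obestatin, 11.17 and 15.31 with the N-terminal peptide, and 10.90 and 15.20 with Nt8U. All of its replicate 2 samples except the one with obestatin were saturated. The lower obestatin value of Odf2, 14.18, was still above the 11.28 of the dim saline sample by more than 4-fold.

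The tektins are filament proteins inside the doublet microtubules. Tekt1 read 11.30 and 15.93 in saline (replicate 2 saturated), 12.22 and 10.63 with obestatin, 11.26 and 15.33 with the N-terminal peptide (replicate 2 saturated), and 10.27 and 15.09 with Nt8U. Tekt2, whose promoter stretch is printed above, read 9.27 and 15.50 in saline, 11.91 and 10.27 with obestatin, 9.45 and 15.20 with the N-terminal peptide (replicate 2 saturated), and 9.09 and 14.68 with Nt8U. Both Tekt2 values with obestatin exceeded those of all 3 dim samples of the other groups. Tekt4 read 11.13 and 15.15 in saline, 11.45 and 9.92 with obestatin, 11.33 and 15.11 with the N-terminal peptide, and 10.14 and 14.06 with Nt8U. Its obestatin replicate 2 was the dimmest of its 8 samples.

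Spag6 and Spag16 encode proteins of the central apparatus, the structure around the central pair that helps to set the beat. Spag16 read 7.46 and 14.26 in saline, 10.44 and 8.83 with obestatin, 7.81 and 14.47 with the N-terminal peptide, and 7.23 and 13.35 with Nt8U. Its 111-fold difference between the saline samples was the largest among the 8 genes with no saturated saline spot, and saturation leaves only a bound for Odf2 and Tekt1. Spag6 read 7.03 and 13.65 in saline, 9.38 and 8.35 with obestatin, 7.57 and 13.78 with the N-terminal peptide, and 7.10 and 12.47 with Nt8U. Its differences were 98.8-fold in saline, 74-fold with the N-terminal peptide and 41.3-fold with Nt8U. Mouse Spag6 has a near-identical paralog, Spag6l, which also carried the name Spag6 in older annotation, so the 2 probes may share signal. Spag6l read 7.85 and 13.96 in saline, 10.04 and 8.55 with obestatin, 7.30 and 14.00 with the N-terminal peptide, and 7.08 and 12.58 with Nt8U.

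**Figure D1:**
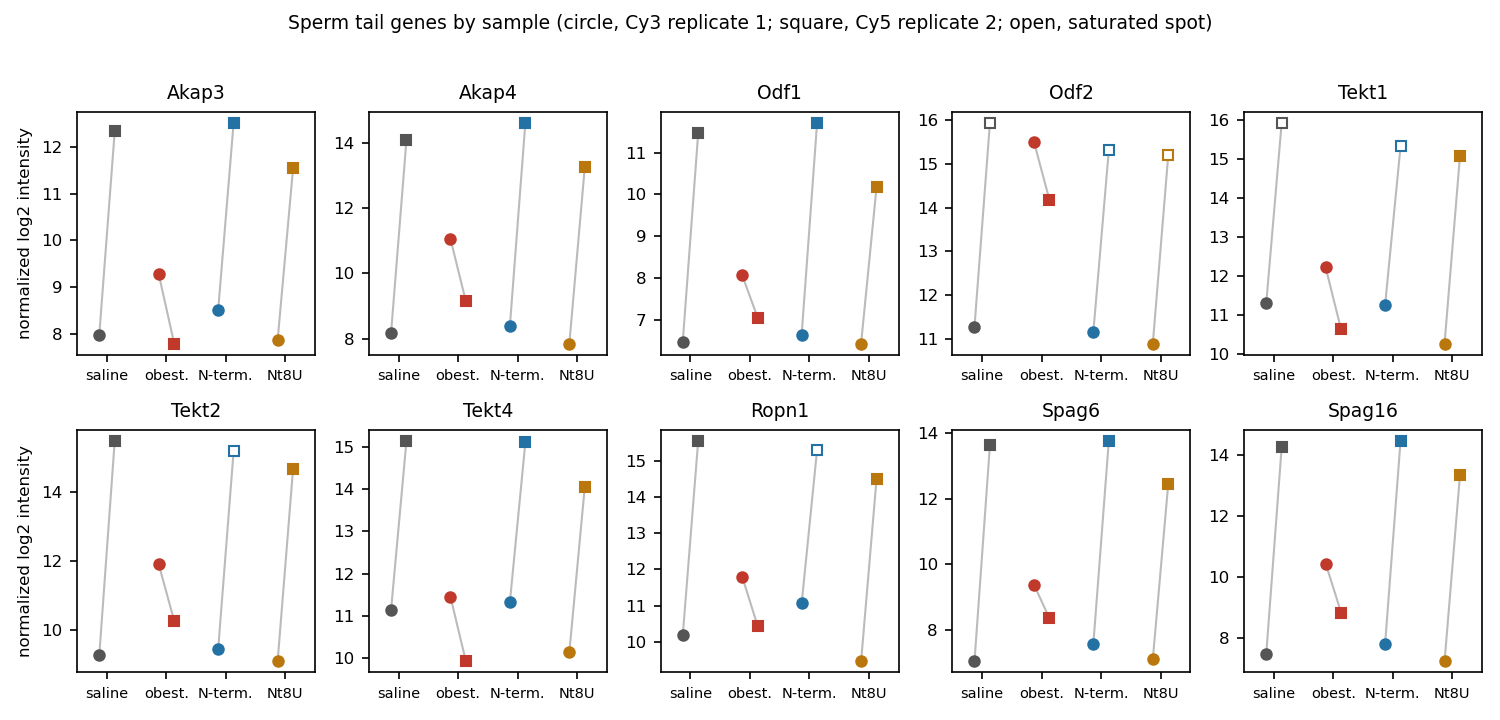
Normalized log2 intensity (y axis, each panel on its own scale) of the brightest probe of each of the 10 genes in the 2 samples of each group (x axis); circles are Cy3 (replicate 1), squares Cy5 (replicate 2), lines join samples of a group and open symbols are saturated spots. The lines climb in saline, N-terminal and Nt8U and descend in obestatin for every gene (9 of 10 without loess), as for Akap4 (8.16 to 14.10 in saline, 11.06 to 9.14 with obestatin).

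Over the 10 genes the median log2 difference, replicate 2 minus replicate 1, was 5.18 in saline (range 4.02 to 6.79), 4.66 with the N-terminal peptide (3.78 to 6.66) and 4.93 with Nt8U (3.67 to 6.12). In the obestatin group it was -1.50 (-1.92 to -1.01). Saturation made 2 of the 10 saline, 4 of the 10 N-terminal and 1 of the 10 Nt8U differences lower bounds, and the medians over the other genes were 5.65, 5.63 and 5.04. Such differences were not confined to the tail genes: 16.6% of the 28166 probes kept were more than 4-fold brighter in replicate 2 in saline, 17.0% with the N-terminal peptide and 12.0% with Nt8U, against 10 of 10 members in each. With obestatin 0.0355% of probes were brighter by that much, against 0 of 10 members. There, 5.38% of probes were more than 2-fold dimmer in replicate 2, against 10 of 10 members. Without loess, which centres each array, the obestatin difference had a median of -0.34 (-0.76 to 0.02) with 9 of 10 genes lower and 0 more than 2-fold, when the median over all probes was 0.79. With quantile normalization 7 of 10, and with a shared 75th percentile 9 of 10, were more than 2-fold lower. The other groups had 10 of 10 beyond 4-fold under these settings, with medians without loess of 5.55 in saline, 5.88 with the N-terminal peptide and 6.27 with Nt8U. These are differences between single samples and carry no test.

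**Figure D2:**
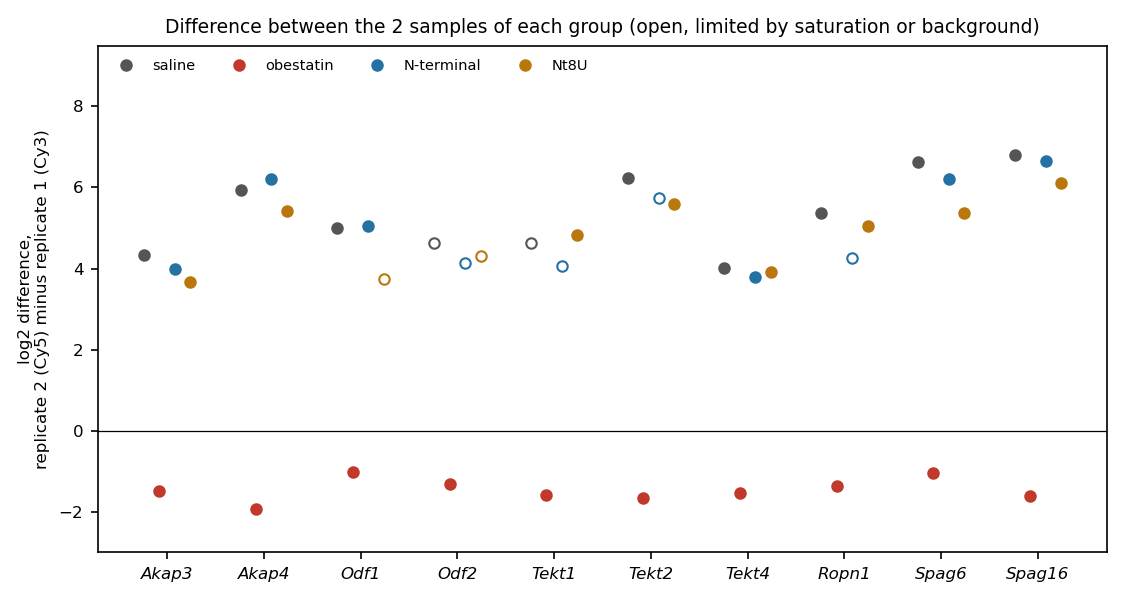
Log2 difference between the samples of each group (y axis, replicate 2, Cy5, minus replicate 1, Cy3) for the 10 genes (x axis), with 1 point per group; open symbols are limited by saturation or background. Saline, N-terminal and Nt8U points lie between 3.67 and 6.79 and obestatin points between -1.92 and -1.01, or between -0.76 and 0.02 without loess.

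The direction of these differences relies on which channel held which sample. The deposited readme was followed here, but in the authors' deposited log2 table each column labelled with one dye followed the scanner channel of the other dye in the same group (r = 1, against 0.7372 to 0.9772 for its own). If that table's labels held, the pair within every group would be exchanged, and each difference within a group would change sign. The group of each value, and so each comparison of group means, would stay the same. The values within dyes below would trade dyes, and a result without replicate 1 of a group would be one without its replicate 2.

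Between groups, limma's fit with dye as a covariate was made on all 28166 probes, with Benjamini-Hochberg adjusted p below 0.05 as the threshold, two-sided. No member was called in any of the 6 comparisons of groups, and 0 had an unadjusted p below 0.05. The background share called was 0% of all probes in each comparison, while the probes with an unadjusted p below 0.05 numbered 2371 for obestatin against saline, 236 for the N-terminal peptide against saline, 2249 for Nt8U against saline, 2980 for Nt8U against the N-terminal peptide, 2787 for the N-terminal peptide against obestatin and 413 for Nt8U against obestatin. The standard errors of the members' differences, 1.56 to 2.32, were well above the median of 0.413 over all probes. At that median an unadjusted p of 0.05 needed a log2 difference of 1.09.

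Obestatin gave wider differences from saline than the other peptides for all 10 genes, and none passed. Tekt4 averaged 10.69 with obestatin and 13.14 in saline, a log2 difference of -2.45 ± 1.56 (SE, n = 2 per group; limma adjusted p = 0.647), with a 95% interval of -6.54 to 1.64. Tekt1 differed by -2.18 ± 1.75 (limma adjusted p = 0.652) and Akap4 by -1.03 ± 2.22 (limma adjusted p = 0.815). Odf2 differed the other way by its brightest probe, by 1.24 ± 1.63 (limma adjusted p = 0.717), with an interval of -3.04 to 5.52. Saline replicate 2 was saturated for Tekt1 and for that Odf2 probe, so both estimates are upper bounds. The remaining Odf2 probes read lower with obestatin, by -0.77 ± 0.48, -0.52 ± 0.47 and -0.82 ± 0.43. The median of the 10 was -1.44, against 0.053 over all probes, and 9 of the 10 estimates were negative. In none of the 10 did the 2 obestatin samples lie wholly above or below the 2 saline samples, whereas 39.8% of all probes had groups that did not overlap. 

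That mean difference joined opposite differences within each dye. Among Cy3 samples, all 10 genes were brighter with obestatin than with saline, by a median log2 difference of 1.98 (0.32 to 4.22). Among Cy5 samples all 10 were dimmer, by a median of -5.17 (-5.43 to -1.74). Over all probes kept the medians were 0.15 among Cy3 and 0.12 among Cy5 samples. Obestatin replicate 1 stood at 8.03% of the log2 distance from the dim to the bright saline sample for Tekt4, at 20% for Tekt1, and at 29.7% to 35.5% for Akap3, Ropn1, Odf1 and Spag6. It stood at 42.4% for Tekt2, 43.9% for Spag16 and 48.9% for Akap4, and at 90.9% for Odf2. The bright saline spots of Tekt1 and Odf2 were saturated, so their shares are upper bounds.

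The median depended on single samples: it was -2.78 without saline replicate 1 and -0.06 without saline replicate 2. Whether any member was called rested on obestatin replicate 1. Without that sample, 9 of the 10 genes, all but Odf2, were lower with obestatin than with saline, with a median log2 difference of -4.97 and a lowest limma adjusted p of 0.0122. The lone obestatin sample is then assumed to vary like the other groups, and 12.1% of all probes were called lower too. Spag16 differed there by -5.29 ± 0.38 and Akap3 by -4.36 ± 0.37, both with a limma adjusted p of 0.0122, whereas Odf2 differed by -1.60 ± 0.35 (limma adjusted p = 0.0533). Without obestatin replicate 2 instead, the median was 1.73 and no member was called.

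The N-terminal peptide gave the smallest differences from saline. Akap4 averaged 11.51 against 11.13, a log2 difference of 0.38 ± 2.22 (limma adjusted p = 1), with an interval of -5.46 to 6.22. Odf2 differed by -0.36 ± 1.63 and Tekt2 by -0.06 ± 2.14 (limma adjusted p = 1 for both). Odf2 was saturated in replicate 2 of both groups, so no difference could be measured there. Tekt2 was saturated in N-terminal replicate 2, so its estimate is a lower bound. The median was 0.24, against 0.024 over all probes, and the samples of the groups overlapped for all 10 genes, beside 9.99% of all probes that did not overlap. Within dyes the medians were 0.22 among Cy3 samples and 0.04 among Cy5 samples. In Cy5, 2 of the 10 saline and 4 of the 10 N-terminal spots were saturated, which limits that median. With probes saturated in any sample left out, the median of the group differences was 0.24 over 8 genes. The authors' deposited table of genes that differed with the N-terminal peptide lists 37 probes as higher and 72 as lower, of 41174 probes. Of the 17 member probes 0 are in it, which says little about the members when so few of all probes are listed.

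Nt8U read lower than saline for all 10 genes, by a median of -0.57 (-1.04 to -0.45), against -0.07 over all probes. Tekt4 averaged 12.10 with Nt8U, a log2 difference from saline of -1.04 ± 1.56 (limma adjusted p = 0.984), with an interval of -5.13 to 3.05. Among Cy5 samples all 10 genes read dimmer than in saline, by a median of -0.87 (-1.30 to -0.73). The value of -0.73 is that of Odf2, which was saturated in both Cy5 samples, so its direction there was not measured. Among Cy3 samples 9 of 10 were not brighter, with a median of -0.27 (-1.02 to 0.07). The groups overlapped for all 10 genes, beside 24.7% of probes that did not.

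Set against the N-terminal peptide, Nt8U again read lower for all 10 genes, by a median of -0.86 (-1.20 to -0.19). The limma adjusted p-values ran from 0.898 to 0.972. Odf2, at -0.19, was saturated in replicate 2 of both groups. Ropn1 showed the widest difference, -1.20 ± 1.80, with an interval of -5.94 to 3.53, and the intervals of all 10 included both a large gain and a large loss, so the peptides were not shown to act alike. No member had groups that did not overlap, beside 26.6% of probes. Against obestatin, the median was 1.71 (-1.60 to 2.53) for the N-terminal peptide and 0.83 (-1.79 to 1.41) for Nt8U, with limma adjusted p of 0.575 to 0.757 and 0.988 to 0.99. Again 0 of 10 had groups that did not overlap, beside 38.2% and 33.6% of probes. Without obestatin replicate 1, the 9 genes other than Odf2 were called higher in both, with medians of 5.09 and 4.21, when 14.6% and 6.50% of probes were called higher. Without obestatin replicate 2 both medians turned, to -1.46 and -2.44, with no call. Comparisons against saline share the saline samples, and those against obestatin share the obestatin samples.

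**Figure D3:**
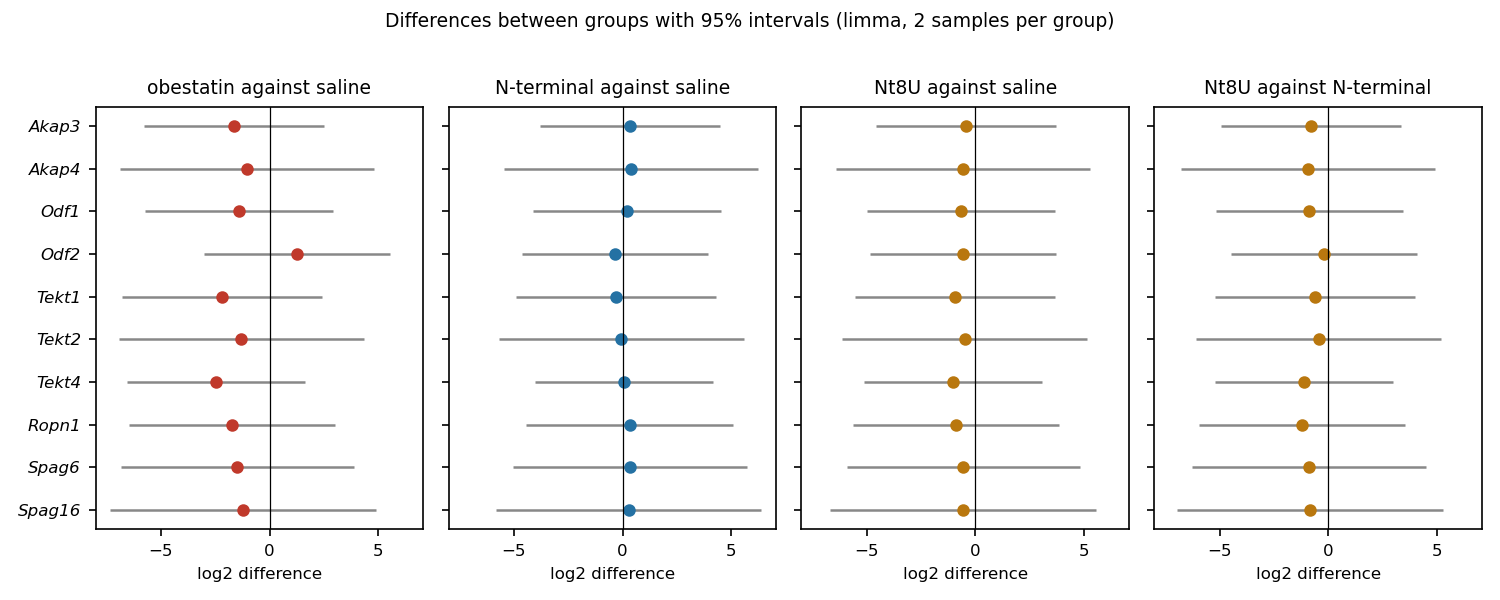
Log2 difference between group means (x axis) for the 10 genes (y axis) in 4 comparisons, from limma with dye as a covariate; points are estimates and lines 95% intervals, with 2 samples per group. All 40 intervals include 0. Odf2, by its brightest probe (1.24), is the one gene on the positive side for obestatin against saline, and its other probes read lower with obestatin.

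Between dyes, the same fit put the Cy5 samples above the Cy3 samples for all 10 genes, by a median of 3.26 (2.55 to 4.49). None passed the threshold, with limma adjusted p of 0.177 to 0.194, and 0% of all probes did. At an unadjusted p below 0.05, 4 of 10 members were higher in Cy5, as were 19.0% of all probes. Spag16 differed by 4.49 ± 1.64 and Spag6 by 4.29 ± 1.45 (SE, n = 4 per dye; limma adjusted p = 0.177 for both). Leaving out either obestatin sample removes the obestatin group from this contrast, and then all 10 genes were called higher in Cy5, with a median of 4.74 and a lowest limma adjusted p of 0.00122. The background was then 22.8% of probes called higher in Cy5. The Cy5 contrast describes 4 samples that each also differ from their partners as samples.

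The 10 genes followed nearly one profile. Over the 8 samples, each gene's Pearson correlation with the median of the other 9 was 0.868 for Odf2, 0.944 for Tekt4, 0.97 for Tekt1 and 0.982 to 0.997 for the other 7. Over the 45 pairs it ran from 0.674 to 0.998, with a median of 0.979. The points share arrays and dyes, so these values are descriptions. Of 21628 candidate probes, those most like the members' median profile were probes of Gstt4, Trim17, Haspin, Tex43 and Allc, with Pearson correlations of 0.9998, 0.9997, 0.9997, 0.9997 and 0.9995 over the 8 samples. Haspin, a histone kinase known for its germ cell transcript, read 8.82 and 15.08 in saline and 11.29 and 9.60 with obestatin. Gstt4 read 8.64 and 15.08 in saline and 11.35 and 9.65 with obestatin.

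Several genes had more than 1 probe, and these did not all follow the same pattern. The 4 probes of Odf2 split. The brightest, annotated to NM_013615, had saline values of 11.28 and 15.93, while the other 3 were closer: 9.67 and 11.36 for one probe of NM_001177659, 9.02 and 10.29 for the other, and 7.13 and 8.84 for the probe of AK086843. With obestatin the brightest Odf2 probe read 15.50 and 14.18. The others read 9.72 and 9.77, 9.23 and 9.03, and 7.01 and 7.31, at or near their dim saline level. The 2 Tekt1 probes agreed in pattern, and the second, saturated in no sample, read 8.85 and 14.11 in saline, 10.32 and 8.70 with obestatin, 8.77 and 14.37 with the N-terminal peptide, and 8.26 and 13.03 with Nt8U. Without saturation its differences were 38.3-fold in saline and 48.5-fold with the N-terminal peptide, above the 24.8-fold and 16.7-fold bounds of the saturated Tekt1 probe.

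The other NM_025728 probe of Spag16 read 6.23 and 10.30 in saline and 7.01 and 6.39 with obestatin, the same pattern. The third Spag16 probe, annotated to AK083083, differed little: its saline values were 6.84 and 6.94, and its obestatin values of 6.09 and 6.05 were both not well above background. The second Odf1 probe was the one that the filter removed, with saline values of 6.19 and 8.84 of which the first was not well above background. Of the 16 probes kept, 12 were more than 4-fold brighter in replicate 2 in each of the saline, N-terminal and Nt8U groups. The other 3 Odf2 probes and the AK083083 probe of Spag16 were the ones that were not.

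**Figure D4:**
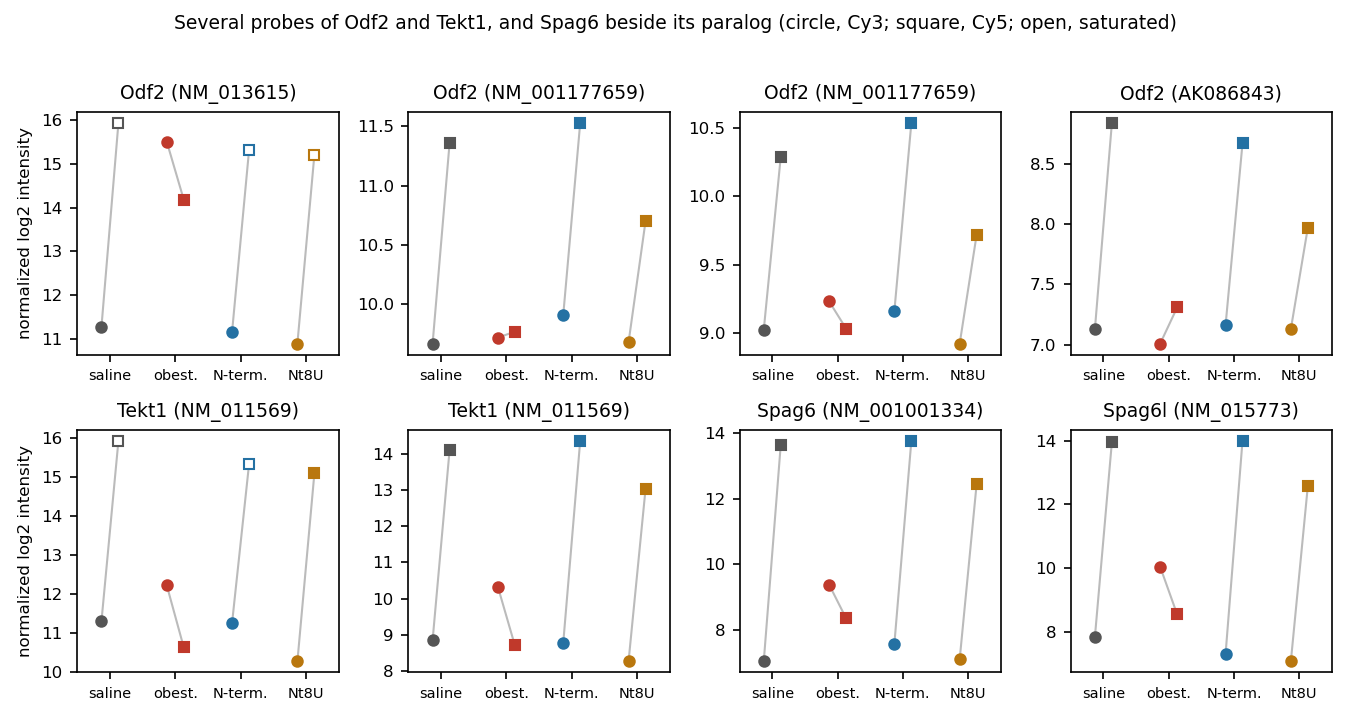
Normalized log2 intensity (y axis, each panel on its own scale) in the 2 samples of each group (x axis) for the 4 probes of Odf2, the 2 of Tekt1, the Spag6 probe and the brighter probe of its paralog Spag6l; circles are Cy3, squares Cy5 and open symbols saturated spots. The NM_013615 probe of Odf2 stays high with obestatin (15.50 and 14.18), and the other 3 Odf2 probes stay at their dim saline level.

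Other genes of the tail, 60 in lists of related structures, followed a similar pattern in most of the 50 that could be tested. Of these, 47 were more than 4-fold brighter in replicate 2 in saline, 46 with the N-terminal peptide, 42 with Nt8U and 0 with obestatin. The shares of all probes kept were 16.6%, 17.0%, 12.0% and 0.0355%. The median log2 differences of the 50 were 4.83, 4.71, 4.12 and -0.94. Between groups 0 of the 50 were called in any comparison by limma, with medians against saline of -1.56 (obestatin), 0.12 (N-terminal peptide) and -0.63 (Nt8U). At an unadjusted p below 0.05 none of these differed between groups. Between dyes 35 of 50 did, beside 7888 of the 28166 probes kept, and again 0 were called.

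The lists differed in size of difference. For each list the median over its genes kept is given for saline and obestatin, and the genes named are those with the highest and the lowest median difference over the 4 groups. Among the 6 fibrous sheath genes measured, the median was 6.08 in saline and -1.06 with obestatin. Spa17, a sheath protein with a domain like that of the regulatory subunit of protein kinase A, had the highest median over groups (5.55, with 8.62 and 14.71 in saline) and Akap14 the lowest (3.70, with 6.30 and 10.64 in saline). For 6 other outer dense fibre genes it was 4.13 and -1.08, with Odf3 highest over groups (5.40) and Odf2l lowest (1.16). Odf2l went against the pattern with obestatin, at 9.83 and 10.16. For 11 genes of the central apparatus and radial spokes it was 4.74 and -0.95. Spag6l had the highest median over groups there (5.81) and Spef1 the lowest of the 11 (1.85); Cfap54, lowest of the whole list, was not well above background in any sample and was not kept. Among 10 dynein arm genes, motors that slide the doublets, it was 3.90 and -0.59. Dnah2 had the highest median over groups (5.78) and Dnah11, a dynein of other motile cilia, the lowest of the 10 (0.17), with 7.01 and 6.48 in saline and 5.96 and 6.08 with obestatin. Dnah11 was well above background in 4 of the 8 samples, so background may limit its difference. Dnaic2, lowest of the whole list, was not well above background in any sample and was not kept. The 5 genes of the mitochondrial sheath and annulus had a median of 4.27 and -1.30, with Spata19 highest over groups (6.38) and Gpx4 lowest (0.74), both saturated in 3 samples. Gpx4 is a selenoprotein of the midpiece that many other cells make. For 12 motility channel and signalling genes it was 5.12 and -0.99, with Adcy10, the bicarbonate-sensing adenylyl cyclase, highest over groups (5.83) and Catsperg1 lowest (1.56). The tektins Tekt3 and Tekt5 were not analysed here.

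Markers of the cells that could hold these RNAs moved with them. All 7 spermatocyte, 7 round spermatid and 6 elongating spermatid markers measured were more than 4-fold brighter in saline replicate 2. So were 7, 7 and 6 with the N-terminal peptide and 6, 7 and 6 with Nt8U, and 0 of these with obestatin. Over all probes kept the shares were 16.6% in saline, 17.0% with the N-terminal peptide, 12.0% with Nt8U and 0.0355% with obestatin. The summed linear level of the elongating spermatid markers went from 25000 to 357000 in saline, 260000 to 92000 with obestatin, 26500 to 249000 with the N-terminal peptide and 15100 to 204000 with Nt8U (replicate 1 to replicate 2). They differed among themselves with obestatin: Prm1, a protamine of sperm chromatin, read 12.68 and 15.97 (saturated) in saline and 16.18 and 14.66 with obestatin, and Tnp2, a transition protein, read 12.85 and 15.86 in saline and 12.69 and 11.24 with obestatin. Prm1, Prm2, Tnp1 and Smcp were each saturated in 3 of the 8 samples.

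Markers of the testis's somatic cells also differed. The 4 Leydig cell markers measured were all more than 4-fold brighter in saline replicate 2 (summed level 591 to 8500) and 0 with obestatin (1190 to 1120). Their summed level went from 1460 to 6210 with the N-terminal peptide and from 690 to 6370 with Nt8U. Of 5 Sertoli cell markers, 3 were more than 4-fold brighter in saline replicate 2. Sox9 was dimmer in replicate 2 in saline (11.30 and 9.61) and with the N-terminal peptide (10.11 and 8.92), but brighter with Nt8U (7.06 and 9.33). The summed level of the 5 went from 4450 to 10900 in saline and 1540 to 1910 with obestatin. It went from 2600 to 11500 with the N-terminal peptide and 785 to 6540 with Nt8U. The 5 spermatogonial markers went both ways, with median differences of 0.05 in saline, 0.20 with obestatin, 0.92 with the N-terminal peptide and 1.31 with Nt8U. In saline Stra8 read 6.34 and 11.31 and Gfra1 10.47 and 7.71. The 4 ciliated cell markers measured went different ways, with a median of 1.65 in saline, -0.99 with obestatin, 2.71 with the N-terminal peptide and 2.29 with Nt8U. In saline, 2 were more than 4-fold brighter in replicate 2, Foxj1, the regulator of motile cilia (8.71 and 11.74), and Deup1 (7.07 and 12.34), while Ccno was dimmer by more than 4-fold (13.01 and 9.75) and Tppp3 nearly level (8.93 and 9.20).

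Adipocyte markers went the other way from the tail genes in saline, N-terminal and Nt8U, with median differences of -0.63, -3.88 and -1.77. With obestatin both were dimmer in replicate 2, the adipocyte markers by a median of -1.17, beside -1.50 for the 10 tail genes. All 9 adipocyte markers were well above background in every sample, and their summed level was 170000 and 126000 in saline, 456000 and 194000 with obestatin, 247000 and 8190 with the N-terminal peptide, and 465000 and 209000 with Nt8U. Fabp4 was saturated in 6 of the 8 samples, Cidec in 4, and Adipoq and Lpl in 3 each. Sums that hold saturated spots are lower bounds. Adipoq, the adipocyte hormone adiponectin, read 14.31 and 14.00 in saline and 14.50 and 11.04 with the N-terminal peptide. Epididymal epithelium markers, 9 genes, summed to 626000 and 28100 in saline, 62600 and 110000 with obestatin, 308000 and 9410 with the N-terminal peptide, and 771 and 2920 with Nt8U. In Nt8U replicate 1, 2 of those 9 were well above background. Lcn5, an epididymal lipocalin, read 6.41 and 8.98 with Nt8U, against 16.46 and 12.70 in saline. Lcn5 was saturated in 3 of the 8 samples, and Lcn8, Lcn9, Adam7, Cst11, Cstdc2 and Spint4 in 1 each. Macrophage markers, 5 genes, had median differences of -1.48 to -1.07 over the 4 groups, and 5 endothelial markers of -1.96 to -0.33. The samples therefore differed in germ cell, epididymal and adipocyte markers at once, and the part of these cell types in the sperm tail results was not tested.

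**Figure D5:**
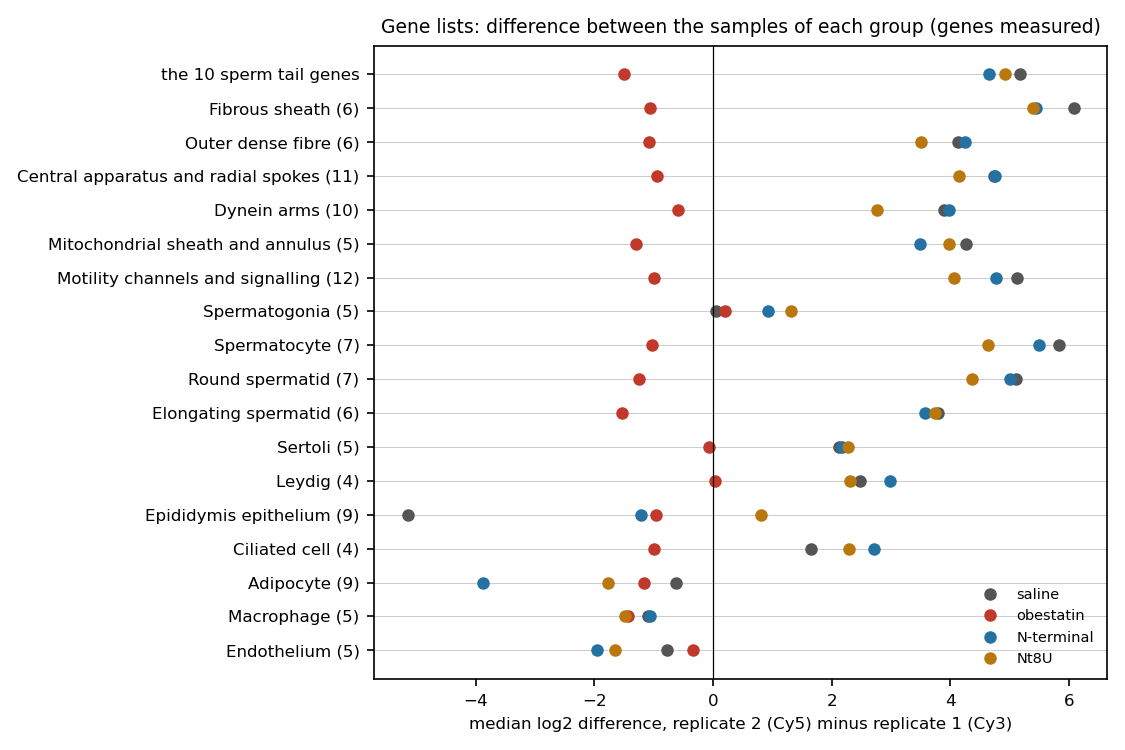
Median log2 difference between the samples of a group (x axis, replicate 2, Cy5, minus replicate 1, Cy3) for the 10 genes, lists of other tail genes and lists of cell type markers (y axis, number of genes measured in brackets), with 1 point per group. Tail, spermatocyte and spermatid lists lie to the right in saline, N-terminal and Nt8U and to the left with obestatin, and the epididymal list lies at -5.15 in saline. The adipocyte, macrophage and endothelial lists lie to the left in every group, obestatin included.

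Series-wide, median signals were 71 to 224.75 intensity units against median backgrounds of 22 to 31, between 60.8% and 74.6% of 41174 probes were well above background, and 10 to 308 probes were saturated per sample. The number of arrays limits the precision.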

How the data were processed

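RNA of 8 samples was measured on 4 Agilent 2-colour arrays, read with Feature Extraction 10.5.1.1, per the file headers. From the deposited intensity values, each channel's median signal and its local median background were used. The authors also deposited log2 values, with a median of -2.90 to -2.14 and a 75th percentile of 0 per column, and per the deposited readme used GeneSpring GX 10 and normalised peptide samples against saline labelled with that dye. The 4 arrays share a slide and a scan time, per the file headers.

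Scanner files carry no gene names, so members were found through the platform annotation, updated by Entrez number to the RefSeq table of GRCm38.p6. Of the probes, 32664 had 1 symbol, 45 several and 8465 none. Background was corrected by normexp (offset 50), followed by loess within arrays (weight 0 for control and outlier spots) and Aquantile between arrays, with limma 3.58.1 in R 4.3.3. A probe was kept if at least 1 group had it well above background in both its samples (28166 probes). The fit used group and dye over all 8 samples, with 3 residual degrees of freedom and 1.67 prior ones. Alternatives covered background, normalization, filters, saturation, probe choice, dye, the authors' table and each sample left out. Summed levels are sums of 2 to the power of the normalized value. The members and lists were chosen with earlier results of these data known. Named genes are the members, the 5 genes most like their median, and the extremes of each tail list; others were chosen after their values were seen. Promoter motifs were chosen for this report.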

Additional observations from a re-analysis of the deposited data

Results flagged for a closer look

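The difference between obestatin and saline ran in opposite directions in the 2 dyes for every one of the 10 sperm tail genes. Among Cy3 samples the median log2 difference was 1.98, with 10 of 10 genes brighter with obestatin. Among Cy5 samples it was -5.17, with 10 of 10 dimmer. Over all probes kept the medians were 0.15 and 0.12. Each side compares 1 sample with 1 sample, and the difference between the dyes was not tested. Dye and sample cannot be told apart here.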

How the results depend on the processing

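Direction and calls were recomputed for the medians and counts of the 10 genes under each alternative. Without loess within arrays the obestatin difference between replicates was -0.34. With the authors' deposited log2 table as labelled, the differences between replicates became -4.89 in saline, 1.39 with obestatin, -4.62 with the N-terminal peptide and -4.24 with Nt8U, and the Cy5 against Cy3 median became -3.07; matching its columns to the scanner channels, an alternative chosen after seeing the data, gave 3.07. Leaving out each sample in turn, the members called ranged from 0 to 9 for obestatin against saline, the N-terminal peptide against obestatin and Nt8U against obestatin (9 without obestatin replicate 1), and from 0 to 10 between dyes (10 without either obestatin sample), and were 0 in the other comparisons. The medians then ranged from -4.97 to 1.73 for obestatin against saline, -1.13 to 1.47 for the N-terminal peptide against saline, -2.01 to 0.63 for Nt8U against saline, -1.88 to 0.38 for Nt8U against the N-terminal peptide, -1.46 to 5.09 for the N-terminal peptide against obestatin, -2.44 to 4.21 for Nt8U against obestatin, and 2.62 to 4.74 between dyes. The cause was not tested. Processed signals, quantile normalization, a shared 75th percentile, the filters and the probe choice changed no direction of a median and no call. No paired analysis was possible because the labels give no replicate numbers. The numbers used here follow accession order and coincide with dye, which the fit holds as a term; without that term 0 members were called. The array as a random block was not run because each array holds 1 group. Saturation and background limit the size of differences between samples.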
